A study of Mus musculus with 12 samples.

Results

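Eicosanoid synthesis enzymes were followed across RNA-seq libraries of murine bone marrow-derived macrophages (BMDMs). The 10 genes were taken by symbol from the 34327 genes of the expression table, by a rule that uses no measured value. They were, however, chosen with earlier results of these data known. They are Pla2g4a, which releases arachidonic acid, the prostaglandin and thromboxane branch of Ptgs1, Ptgs2, Ptges, Hpgds and Tbxas1, the leukotriene branch of Alox5, Alox5ap and Ltc4s, and the lipoxygenase Alox15. The 12 libraries cover 6 conditions with 2 libraries each. Wild-type C57BL/6J marrow was grown into macrophages in medium conditioned by L929 cells. The cells were then kept on tissue culture (TC) plates, in low-collagen gels (2 mg/ml rat tail collagen I) or in high-collagen gels (7 mg/ml), each without cytokine or with recombinant IL-4 at 20 ng/ml, for 24 hours by the labels, while the gel protocol allows 16 to 28 hours. No genotype other than wild type was used, and every group shared the L929-conditioned medium during differentiation. Nothing in the sources says that the 2 libraries of a condition came from separate cultures or animals, so p-values measure only the spread between these libraries.

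Eicosanoids are short-lived signalling lipids made from arachidonic acid, which cytosolic phospholipase A2 cuts out of membrane phospholipids. Cyclooxygenases turn it into prostaglandin H2, from which terminal synthases make prostaglandin E2, prostaglandin D2 or thromboxane A2. 5-lipoxygenase, helped by its activating protein FLAP, instead makes leukotriene A4, which leukotriene C4 synthase joins to glutathione. Macrophages are a known source of lipids of both branches.

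The libraries carried macrophage transcripts. All 8 macrophage markers of a fixed list were above 1 TPM on average. TPM are transcript abundance per transcript length, on a total that is the same for all libraries. The macrophage marker sum was 27988 and 28594 TPM on untreated plates and 17542 TPM in both plate libraries with IL-4. It was 43337 and 46133 TPM in low-collagen gels and 30719 and 31917 TPM with IL-4, then 53823 and 53958 TPM in high-collagen gels and 35740 and 37706 TPM with IL-4. The sum was thus lower with IL-4 in each environment and higher in gels than on plates within each treatment, with no overlap, and its part in the differences below was not tested. Mast cells, eosinophils and basophils also make these lipids, and their marker sums reached at most 1.48, 3.46 and 0.567 TPM, with Fcer1a, Tpsb2 and Epx at 0 in every library. Neutrophil markers summed to 4.08 to 9.16 TPM on TC plates and 12.8 to 30.4 TPM in gels, with Ly6g at 0. Megakaryocyte and platelet markers summed to 0.597 to 5.83 TPM, highest in untreated gels, with Gp1ba at 0. Dendritic cell, fibroblast and lymphocyte markers summed to at most 1.50, 0.794 and 0.875 TPM. The part of any other cell type in the values below was not tested. In bulk RNA, fewer cells with a transcript and less of it per cell cannot be told apart. Arg1, an alternative activation marker, averaged 4.42 to 44.2 TPM in the untreated conditions and 3092 to 7815 TPM in those with IL-4.

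The sequence around the transcription start is shown for Ptgs1, Tbxas1, Hpgds and Ltc4s. Each was called in several of the comparisons below, as were Alox5, Alox5ap and Pla2g4a, so the choice is not a ranking. RefSeq windows on GRCm38.p6, from 250 bases before to 50 bases after the start, were found for 8 of the 10 genes (9 windows among 32851). None was found for Alox5ap and Alox15. Capitals mark matches to TTCNNNNGAA, the spacing that STAT6, the transcription factor downstream of the IL-4 receptor, is known for, and to GAGGAAGT, a form of the site of the macrophage factor PU.1. Both strands were searched, together with TTCNNNGAA, the spacing of other STAT factors. Ptgs1 is at chr2:36230176-36230475 on the + strand, Tbxas1 at chr6:38918736-38919035 on the + strand, Hpgds at chr6:65144681-65144980 on the − strand and Ltc4s at chr11:50238483-50238782 on the − strand.
Ptgs1: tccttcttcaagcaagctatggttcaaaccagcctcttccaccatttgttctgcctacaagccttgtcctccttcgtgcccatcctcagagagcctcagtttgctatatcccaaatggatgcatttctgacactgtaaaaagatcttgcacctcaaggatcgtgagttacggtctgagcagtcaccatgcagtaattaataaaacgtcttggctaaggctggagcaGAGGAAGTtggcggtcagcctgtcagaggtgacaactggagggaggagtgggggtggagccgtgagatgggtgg
Tbxas1: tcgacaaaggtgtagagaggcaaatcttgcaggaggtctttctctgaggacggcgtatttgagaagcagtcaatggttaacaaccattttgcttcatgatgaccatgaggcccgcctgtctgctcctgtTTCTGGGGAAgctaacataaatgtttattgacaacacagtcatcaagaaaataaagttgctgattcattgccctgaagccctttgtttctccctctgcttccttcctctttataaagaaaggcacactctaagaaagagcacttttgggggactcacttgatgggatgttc
Hpgds: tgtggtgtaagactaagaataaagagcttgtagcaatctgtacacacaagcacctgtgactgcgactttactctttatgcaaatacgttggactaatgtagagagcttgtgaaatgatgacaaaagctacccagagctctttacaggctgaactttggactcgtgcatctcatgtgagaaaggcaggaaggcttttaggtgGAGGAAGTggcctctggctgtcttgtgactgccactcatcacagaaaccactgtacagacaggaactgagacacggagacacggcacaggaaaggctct
Ltc4s: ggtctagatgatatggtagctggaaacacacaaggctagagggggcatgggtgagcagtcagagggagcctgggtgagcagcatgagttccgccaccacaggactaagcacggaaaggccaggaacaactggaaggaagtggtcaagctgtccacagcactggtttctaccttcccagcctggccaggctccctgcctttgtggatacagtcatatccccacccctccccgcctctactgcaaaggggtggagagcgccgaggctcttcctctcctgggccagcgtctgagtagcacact
The TTCNNNNGAA spacing was present in the Tbxas1 window, 121 bases before the start, and in that of Ptges, 197 bases before it. Both windows lie inside the gene spans given below (Ptges at chr2:30903248-30903547), so neither start is the outermost annotated one. Of all windows, 6.95% held it. GAGGAAGT was present in the Ptgs1 and Hpgds windows, 24 and 49 bases before the start, and in 3.20% of all windows. TTCNNNGAA was in 8.30% of all windows and in none of the 9. The Ltc4s window held none of the 3. Such matches are letters in a window, not measured sites.

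**Figure D1:**
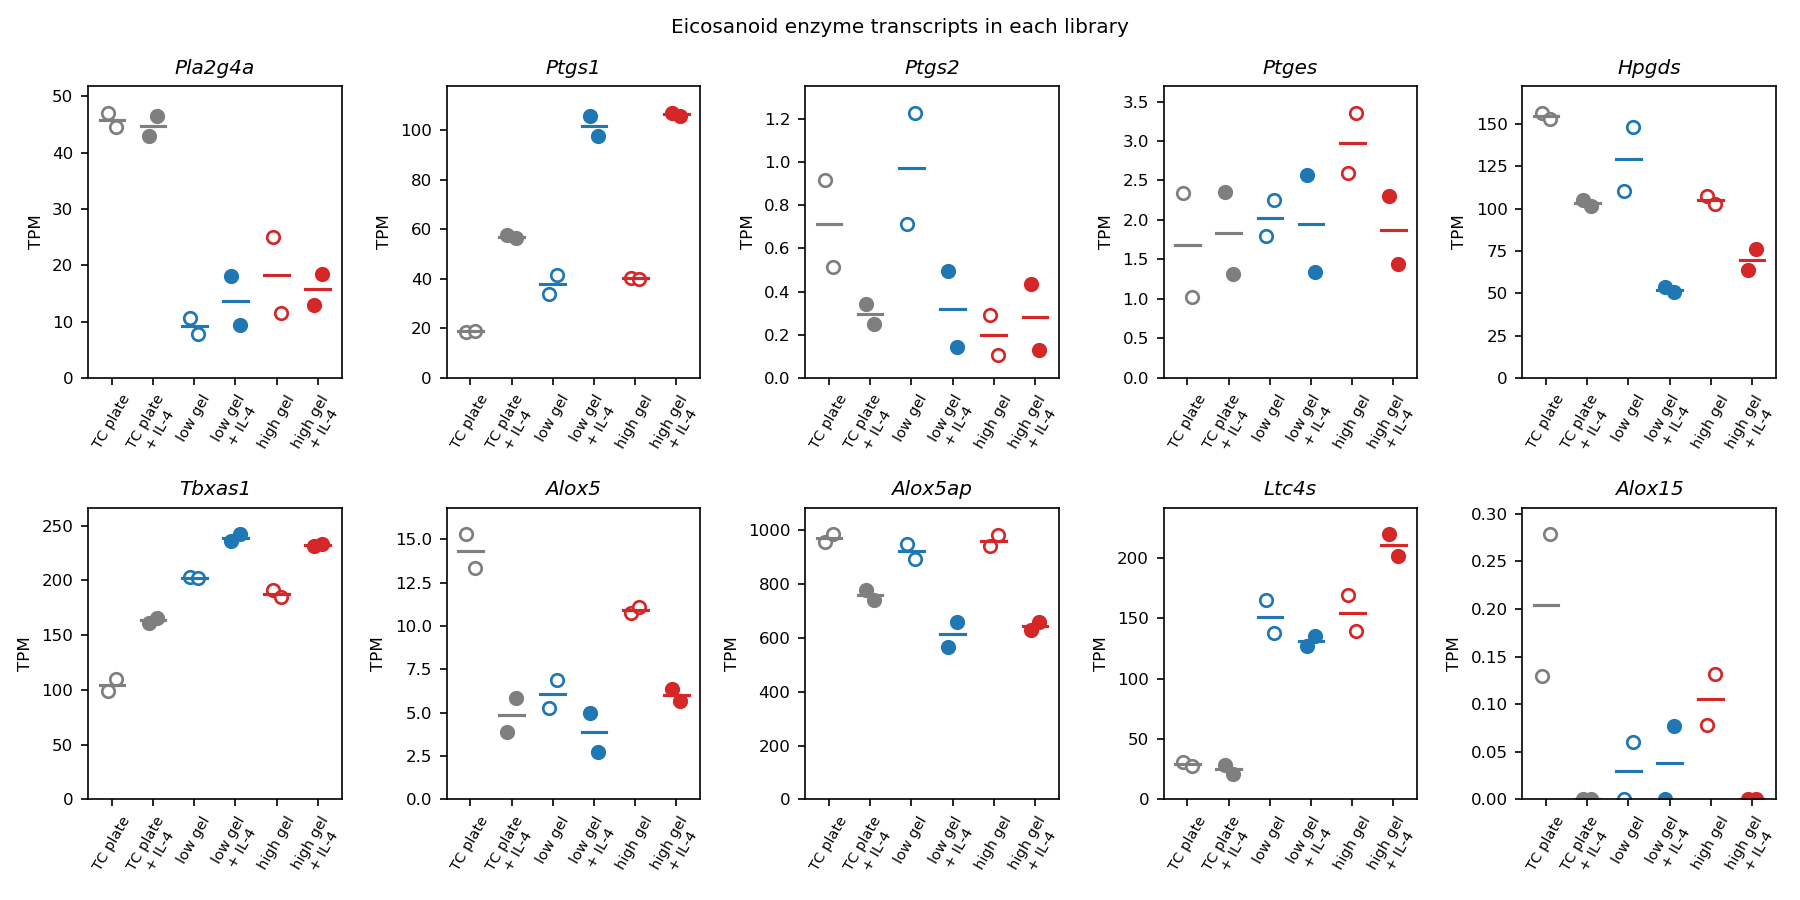
Level of each of the 10 transcripts in TPM (vertical axes, each from 0) in the 12 libraries, by condition. Points are libraries, open without and filled with IL-4, and bars are means of 2. Ptgs1 is higher with IL-4 in every environment, and Ltc4s is between 127 and 220.0 TPM in gels but at most 30.9 TPM on TC plates.

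The 10 transcripts spanned a wide range. Averaged over the 12 libraries, Alox5ap was at 812 TPM and ranked 195 among all 34327 genes. Tbxas1 followed at 188 TPM, Ltc4s at 117, Hpgds at 102, Ptgs1 at 60.3 and Pla2g4a at 24.6 TPM. The range of Ltc4s over libraries (21.4 to 220.0 TPM) overlapped those of Tbxas1 (99.2 to 242), Hpgds (50.5 to 157) and Ptgs1 (18.6 to 107), so these neighbours are ordered by their means only. Alox5 averaged 7.68 TPM, so that the transcript of the lipoxygenase itself lay far below that of its activating protein. Ptges averaged 2.06 TPM. Ptgs2 (0.463 TPM) and Alox15 (0.0629 TPM) fell below the mean of 1 TPM required for testing. The other 8 were tested.

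Pla2g4a, on chromosome 1 (149829618 to 149961290 of GRCm38, − strand), encodes the cytosolic phospholipase A2 that supplies both branches. On TC plates it was at 47.1 and 44.6 TPM without IL-4 and at 42.9 and 46.5 TPM with it. In low-collagen gels it was at 10.6 and 7.85 TPM, and with IL-4 at 18.1 and 9.37 TPM. In high-collagen gels it was at 25.0 and 11.5 TPM, and with IL-4 at 12.96 and 18.5 TPM. Every gel library was below every plate library, and within each collagen concentration the libraries with and without IL-4 overlapped. Both untreated high-collagen libraries were above both untreated low-collagen ones.

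Ptgs1 (chromosome 2, 36230426 to 36252272, + strand) encodes cyclooxygenase 1, the constitutive form of the enzyme. It was at 18.6 and 18.97 TPM on TC plates and at 57.5 and 56.4 TPM on plates with IL-4. Low-collagen gels gave 33.8 and 41.7 TPM, and with IL-4 106 and 97.7 TPM. High-collagen gels gave 40.4 and 39.8 TPM, and with IL-4 107 and 106 TPM. Libraries with and without IL-4 did not overlap in any environment, nor did plates and gels within either treatment, while low- and high-collagen gels overlapped. Ptgs2 (chromosome 1, 150100031 to 150108227, + strand) encodes the inducible cyclooxygenase 2, and it was between 0.104 and 1.23 TPM in all 12 libraries. Its highest value was in an untreated low-collagen gel, and its lowest in an untreated high-collagen gel.

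The terminal prostanoid synthases differed from each other in level and in direction. Ptges (chromosome 2, 30889471 to 30929863, − strand), the inducible microsomal prostaglandin E synthase, was low, between 1.02 and 3.36 TPM, and its libraries overlapped in most comparisons. Hpgds (chromosome 6, 65117293 to 65144908, − strand), the hematopoietic prostaglandin D synthase, was at 157 and 153 TPM on TC plates and at 105 and 101 TPM on plates with IL-4. In low-collagen gels it was at 111 and 148 TPM, and with IL-4 at 53.5 and 50.5 TPM. High-collagen gels gave 107 and 103 TPM, and with IL-4 63.5 and 76.2 TPM. The IL-4 libraries were thus the lower ones in each environment, with no overlap.

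Tbxas1 (chromosome 6, 38875404 to 39084585, + strand), the thromboxane A synthase, ran the other way. It was at 99.2 and 110.4 TPM on TC plates and at 161 and 166 TPM on plates with IL-4. The low-collagen gels had 203 and 202 TPM, and with IL-4 236 and 242 TPM. The high-collagen gels had 191 and 185 TPM, and with IL-4 232 and 233 TPM. The IL-4 libraries were the higher ones in each environment. The ratio of Tbxas1 to Hpgds TPM was 0.633 and 0.722 on untreated plates, 4.41 and 4.80 with IL-4 in low-collagen gels, and 3.65 and 3.05 with IL-4 in high-collagen gels.

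In the leukotriene branch, Alox5 (chromosome 6, 116410077 to 116461178, − strand), the 5-lipoxygenase, was at 15.3 and 13.3 TPM on TC plates and at 3.89 and 5.85 TPM on plates with IL-4. In low-collagen gels it was at 5.26 and 6.87 TPM, and with IL-4 at 4.98 and 2.74 TPM. The high-collagen gels had 10.7 and 11.1 TPM, and with IL-4 6.37 and 5.69 TPM. The highest 4 values were the untreated plates and untreated high-collagen gels. Alox5ap (chromosome 5, 149264767 to 149288153, + strand), which encodes FLAP, was at 956 and 986 TPM on plates and at 779 and 742 TPM with IL-4. It was at 950.0 and 893 TPM in low-collagen gels and at 568 and 658 TPM with IL-4. It was at 942 and 981 TPM in high-collagen gels and at 628 and 657 TPM with IL-4. All 6 untreated libraries were above all 6 IL-4 libraries.

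Ltc4s (chromosome 11, 50236461 to 50238616, − strand), the leukotriene C4 synthase, separated plates from gels. It was at 30.9 and 28.1 TPM on TC plates and at 28.6 and 21.4 TPM with IL-4. In low-collagen gels it was at 165 and 138 TPM, and with IL-4 at 127 and 135 TPM. High-collagen gels gave 169.6 and 139.5 TPM, and with IL-4 220.0 and 202 TPM. High-collagen gels with IL-4 were above every other library. Of the 31-base words of the Ltc4s transcripts, 19.5% also occur in the transcripts of the gene Gm26542, and 9.45% of those of Alox5ap occur in Gm19719. The kallisto options that the study gives include none for strand, so reads of these pairs may not be told apart. The words were counted over GENCODE transcripts, on either strand. Whether Gm26542 and Gm19719 were in the Ensembl transcriptome that the authors used was not checked. For each of the other 8 genes at most 3.26% of words were shared with other genes. Alox15 (chromosome 11, 70344152 to 70352031, − strand), the 12/15-lipoxygenase that resident peritoneal macrophages are known for, was listed at 0 in 6 of the 12 libraries, among them all 4 IL-4 libraries of plates and high-collagen gels. Its highest value was 0.279 TPM, on an untreated plate.

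With IL-4 on TC plates, Ptgs1 and Tbxas1 rose and Hpgds, Alox5 and Alox5ap fell. Changes were tested with limma on log2(TPM + 1), a scale that understates the change of low genes, with calls at an adjusted p-value below 0.2, a q-value threshold that the study itself used. Ptgs1 rose by 1.55 on the log2 scale (SE 0.09, adjusted p = 2.0e-06 by limma), a 3.03-fold ratio of mean TPM. Tbxas1 rose by 0.64 (SE 0.06, limma adjusted p = 3.7e-05). Alox5 fell by 1.40 (SE 0.24, limma adjusted p = 0.0020), Hpgds by 0.58 (SE 0.13, limma adjusted p = 0.0081) and Alox5ap by 0.35 (SE 0.07, limma adjusted p = 0.0051). Ltc4s differed by −0.24 (SE 0.14), Ptges by 0.10 (SE 0.32) and Pla2g4a by −0.04 (SE 0.35), and none of these passed. Without the first IL-4 library Ltc4s was called lower (−0.44, limma adjusted p = 0.073). Of all 11865 genes tested, 14.7% were called higher and 24.0% lower. After rescaling the libraries by median ratios these shares were 19.4% and 19.9%. The counts among the 8 enzymes, 2 higher and 3 lower, stand beside that background.

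In low-collagen gels, IL-4 moved the same 5 genes in the same directions. Ptgs1 rose by 1.41 (SE 0.10, limma adjusted p = 5.8e-05) and Tbxas1 by 0.24 (SE 0.05, limma adjusted p = 0.013). Hpgds fell by 1.28 (SE 0.14, limma adjusted p = 0.00049), to a mean of 52.0 ± 2.07 TPM (SD, n = 2), the lowest of the 6 conditions. Alox5ap fell by 0.59 (SE 0.08, limma adjusted p = 0.0011). Alox5 fell by 0.57 (SE 0.23, limma adjusted p = 0.099), a call lost when the second IL-4 library was left out (−0.23, adjusted p = 0.47) or the second untreated library (−0.41, adjusted p = 0.36), and after median-ratio rescaling (−0.39, adjusted p = 0.21). Ltc4s (−0.20, SE 0.12), Pla2g4a (0.48, SE 0.39) and Ptges (−0.06, SE 0.28) did not pass, although Ltc4s did without the second untreated library (−0.33, limma adjusted p = 0.12). Of 11852 genes tested in the gels, 13.2% were called higher and 40.4% lower, against 24.0% and 20.4% after median-ratio rescaling. The median log2 change of all genes was −0.19, and the falls of Hpgds, Alox5ap and Alox5 were larger than that.

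In high-collagen gels 6 of the 8 tested genes were called with IL-4. Ptgs1 rose by 1.38 (SE 0.10, limma adjusted p = 9.8e-05), Tbxas1 by 0.30 (SE 0.05, limma adjusted p = 0.0075) and Ltc4s by 0.45 (SE 0.12, limma adjusted p = 0.038). Hpgds fell by 0.59 (SE 0.14, limma adjusted p = 0.028), Alox5ap by 0.58 (SE 0.08, limma adjusted p = 0.0019) and Alox5 by 0.76 (SE 0.23, limma adjusted p = 0.064). Without the second IL-4 library Alox5 no longer passed (−0.69, adjusted p = 0.21). Ptges (−0.48, SE 0.28) and Pla2g4a (−0.13, SE 0.39) did not pass. The background was 11.5% of genes higher and 22.8% lower, and after median-ratio rescaling 2012 genes were higher and 1732 lower. The median change of all genes was −0.10. With 2 libraries against 2, an exact two-sided permutation test of a single gene cannot go below p = 0.33, so these calls rest on the spread that limma pools over genes.

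**Figure D2:**
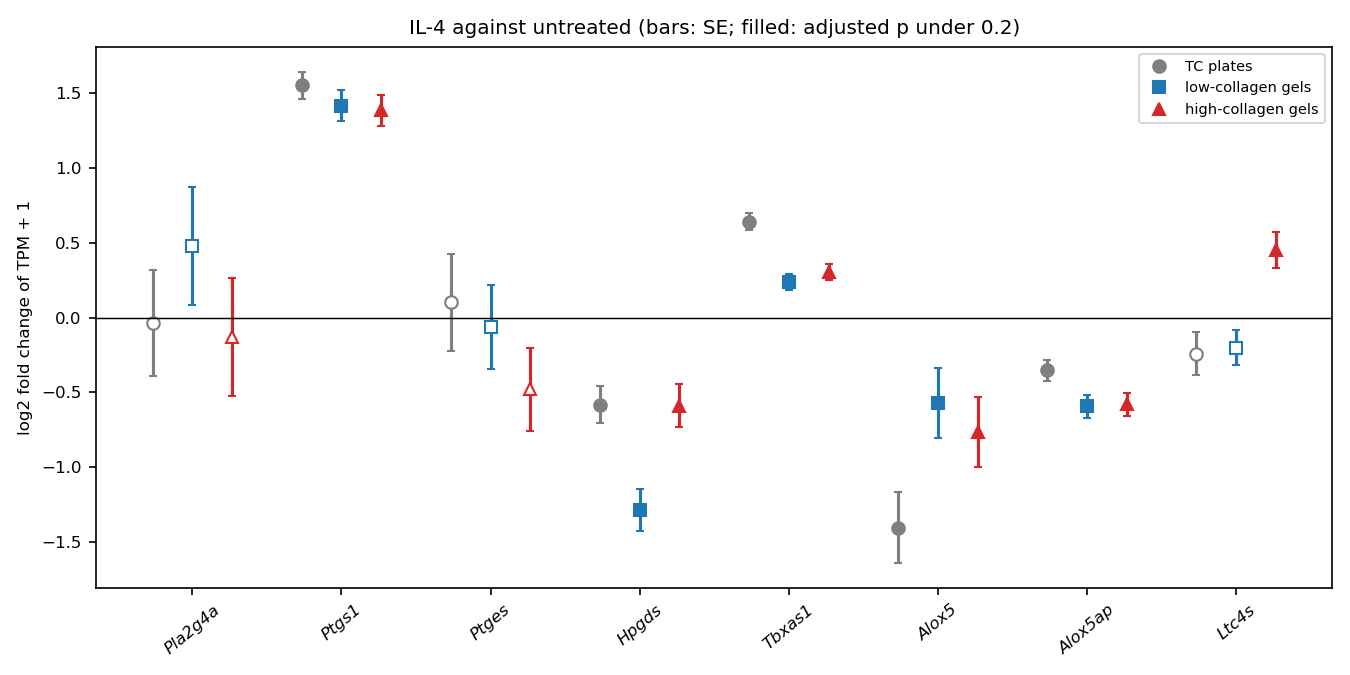
Log2 fold change of TPM + 1 with IL-4 against untreated (vertical axis) for the 8 tested genes, on TC plates and in low- and high-collagen gels. Points are estimates, bars are standard errors, and filled points passed an adjusted p-value of 0.2. Ptgs1 lies between 1.38 and 1.55 in the 3 environments, while Hpgds reaches −1.28 in low-collagen gels.

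The IL-4 responses were then compared between environments. Between high- and low-collagen gels none of the 8 genes had a response that differed at the threshold, where 0.194% of all genes were called for a higher and 0.169% for a lower response in high-collagen gels (0.118% and 0.202% after median-ratio rescaling). Over all genes limma called 43, with 1171 at an unadjusted p under 0.05, and of the 8 enzymes 2, Hpgds and Ltc4s, were under that unadjusted value. The estimates were 0.70 for Hpgds (SE 0.20, limma adjusted p = 0.36) and 0.65 for Ltc4s (SE 0.17, limma adjusted p = 0.34). The fall of Hpgds and the rise of Ltc4s are therefore not shown to depend on collagen.

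Responses were set against those on TC plates as signed log2 changes. In low-collagen gels IL-4 gave a larger fall of Hpgds (−0.70, SE 0.18, limma adjusted p = 0.034) and of Alox5ap (−0.24, SE 0.10, limma adjusted p = 0.16). It gave a smaller rise of Tbxas1 (−0.40, SE 0.08, limma adjusted p = 0.015) and a smaller fall of Alox5 (0.83, SE 0.33, limma adjusted p = 0.15). Of all genes, 9.30% had a higher and 18.7% a lower response, and 14.8% and 9.91% after median-ratio rescaling, under which the difference for Alox5ap was −0.09. The Alox5 difference did not pass without the first low-collagen library of either treatment, the first plate library with IL-4 or either untreated plate library (0.49 to 0.92). That of Alox5ap did not pass without any plate library or the first low-collagen library of either treatment (−0.27 to −0.13). In high-collagen gels the response was lower than on plates for Tbxas1 (−0.34, SE 0.08, limma adjusted p = 0.041) and higher for Ltc4s (0.69, SE 0.20, limma adjusted p = 0.078), where 8.66% of genes were called higher and 8.61% lower (11.1% and 6.97% after median-ratio rescaling). The Ltc4s call was lost without the first high-collagen IL-4, the second untreated high-collagen, the second plate IL-4 or the first untreated plate library, at estimates of 0.49 to 0.63. The response of Ptgs1 differed from that on plates by −0.14 (SE 0.13) in low- and −0.17 (SE 0.13) in high-collagen gels, and neither passed. The former did without the first untreated low-collagen library (−0.28, limma adjusted p = 0.11).

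Between collagen concentrations, 3 of the 8 tested genes were called with IL-4 and 1 without it, all higher at high collagen. With IL-4 the background was 14.1% of genes higher and 6.99% lower, or 9.83% and 11.7% after median-ratio rescaling, and without it 3.23% and 4.79% (3.73% and 3.61% after median-ratio rescaling). With IL-4, high-collagen gels had more Ltc4s than low-collagen gels (0.68 on the log2 scale, SE 0.12, limma adjusted p = 0.025), at means of 211 ± 12.9 and 131 ± 5.54 TPM (SD, n = 2). Hpgds was higher by 0.41 (SE 0.14, limma adjusted p = 0.14) and Alox5 by 0.57 (SE 0.23, limma adjusted p = 0.196). Both of these calls lie near the threshold. Leaving out the second high-collagen IL-4 library or either low-collagen one ended the Hpgds call (0.28 to 0.45), and leaving out either high-collagen or the second low-collagen library ended that of Alox5 (0.23 to 0.64). Ptgs1 (0.06, SE 0.10), Tbxas1 (−0.04, SE 0.05) and Alox5ap (0.07, SE 0.08) did not pass.

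Without IL-4 only Alox5 among the tested enzymes was higher in high-collagen than in low-collagen gels (0.76, SE 0.23, limma adjusted p = 0.18), at 10.9 ± 0.259 against 6.07 ± 1.14 TPM (SD, n = 2). The call was lost when any 1 of the 4 libraries was left out, at estimates of 0.60 to 0.93. Pla2g4a differed by 0.83, with an SE of 0.39 that reflects its spread in gels, and Hpgds by −0.28 (SE 0.14), which became −0.49 (limma adjusted p = 0.17) without the first low-collagen library. These comparisons of collagen use the same gel libraries as the IL-4 comparisons, so they are not independent of them.

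Gels and TC plates differed more than the collagen concentrations did, for all genes as for the enzymes, by the shares given below. Ltc4s was called higher in gels in each comparison. Without IL-4 it was higher in low-collagen gels by 2.32 (SE 0.14, limma adjusted p = 8.3e-07) and in high-collagen gels by 2.35 (SE 0.14, limma adjusted p = 7.0e-07), ratios of mean TPM of 5.14 and 5.24. With IL-4 the differences were 2.36 (limma adjusted p = 1.0e-06) and 3.04 (limma adjusted p = 1.8e-07), ratios of 5.25 and 8.43. Ptgs1 was higher in gels by 0.82 to 1.05 and Tbxas1 by 0.50 to 0.94 over the same 4 comparisons, each with a limma adjusted p of at most 4.6e-05.

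Pla2g4a was lower in gels in all 4 comparisons. It differed by −2.21 in low-collagen gels (SE 0.35, limma adjusted p = 0.00041) and by −1.38 in high-collagen gels (limma adjusted p = 0.0069) without IL-4. With IL-4 it differed by −1.70 (limma adjusted p = 0.0020) and −1.47 (limma adjusted p = 0.0047). Hpgds was lower in gels as well, with −0.56 for high collagen in either treatment and −0.98 for low collagen with IL-4 (limma adjusted p = 9.7e-05). In untreated low-collagen gels it differed by −0.27 (limma adjusted p = 0.088), but by −0.06 (adjusted p = 0.64) without the first low-collagen library, by −0.25 (adjusted p = 0.23) without the first plate library, and by −0.11 (adjusted p = 0.38) after median-ratio rescaling.

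Alox5 was lower in untreated low-collagen gels than on plates (−1.12, SE 0.24, limma adjusted p = 0.0023), while in untreated high-collagen gels it differed by −0.36 (limma adjusted p = 0.21). With IL-4 it differed by −0.29 and 0.28 in low- and high-collagen gels, and neither passed. The former did without the first IL-4 library of either group (−0.63 and −0.53), and the latter without the second plate library (0.52) and after median-ratio rescaling (0.47, limma adjusted p = 0.089). Alox5ap was lower in gels with IL-4 by 0.31 (limma adjusted p = 0.0031) and 0.24 (limma adjusted p = 0.012) on the log2 scale, but after median-ratio rescaling these differences were −0.00 and −0.01 and did not pass. Without IL-4 it differed by −0.08 in low- and −0.01 in high-collagen gels, and rescaling turned the latter to 0.16 (limma adjusted p = 0.18). Ptges was called higher only in untreated high-collagen gels (0.61, SE 0.32, limma adjusted p = 0.13), and lost that call without the second library of either group (0.24 and 0.47).

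The shares of all genes called against TC plates were large. Without IL-4 they were 28.5% higher and 44.3% lower in low-collagen gels and 28.0% and 45.5% in high-collagen gels, and with IL-4 they were 22.8% and 52.2% and then 26.5% and 48.1%. After median-ratio rescaling they were 36.2% and 36.7%, 36.3% and 37.4%, 35.9% and 36.1%, and 36.8% and 37.1%, in the same order. In each of the 4 comparisons 6 of the 8 tested enzymes were called, with 3 or 4 higher and 2 or 3 lower. Gels and plates differ in geometry, in stiffness and in whether collagen was present, and these cannot be told apart. Neutrophil markers moved with the gels, as given above. Megakaryocyte and platelet markers, of a cell type known for Ptgs1 and Tbxas1, summed to 1.12 to 1.74 TPM on plates, 4.48 to 5.83 TPM in untreated gels and 0.597 to 3.88 TPM in gels with IL-4. The part of either in these differences was not tested.

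**Figure D3:**
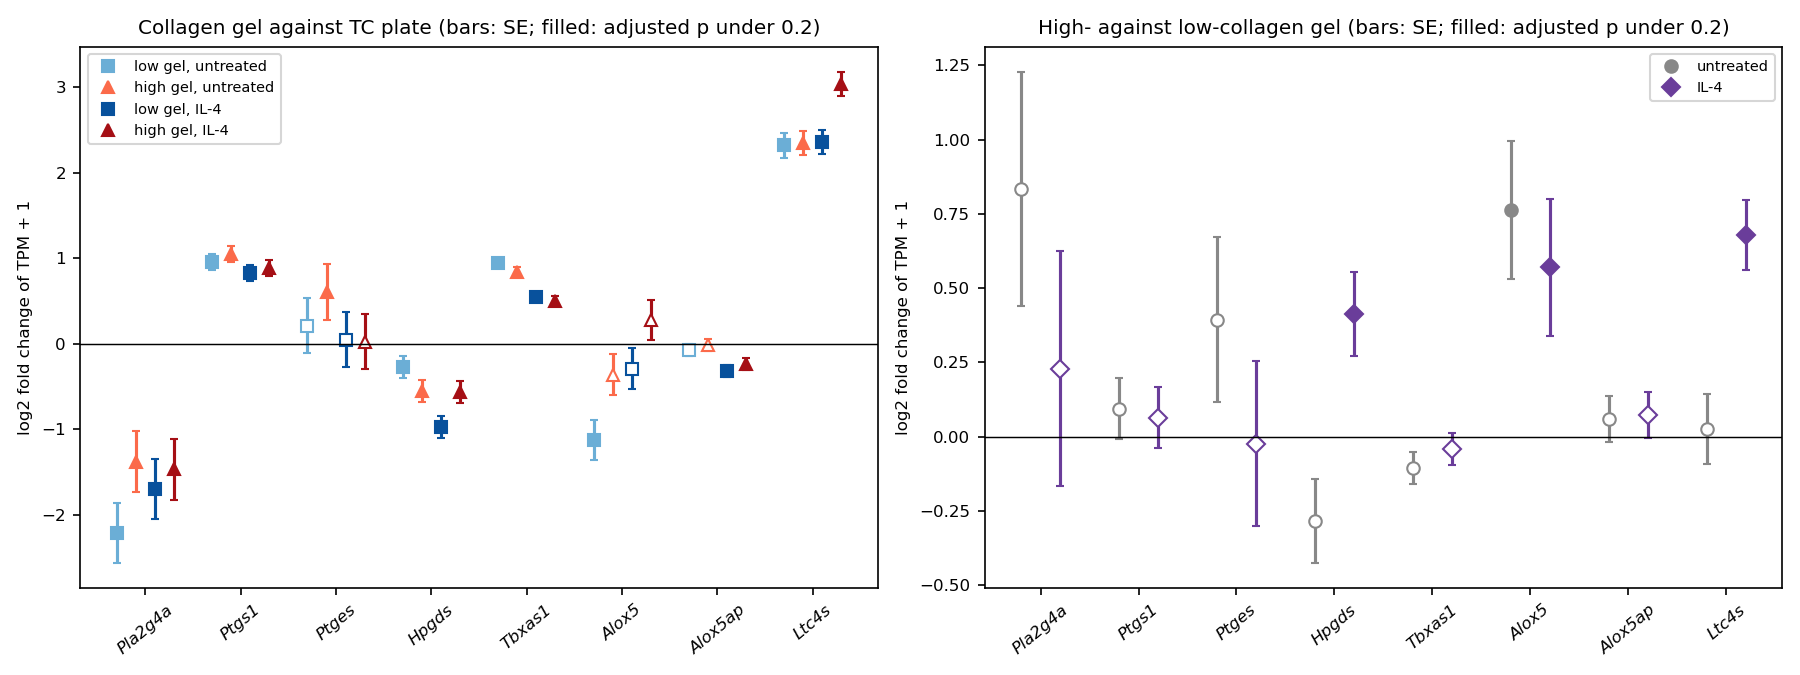
Log2 fold changes of TPM + 1 for the 8 tested genes, in gels against TC plates (left) and in high- against low-collagen gels (right), with and without IL-4. Points are estimates, bars are standard errors, and filled points passed an adjusted p-value of 0.2. Ltc4s lies from 2.32 to 3.04 above plates and Pla2g4a from 1.38 to 2.21 below them, and on the right only Alox5, Hpgds and Ltc4s hold filled points.

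The branches were set against each other in each library, as a description without a test. The balance is the mean log2(TPM + 1) of Ptgs1, Ptgs2, Ptges, Hpgds and Tbxas1 minus that of Alox5, Alox5ap and Ltc4s. Genes of a branch weigh the same in it. Among them are Ptgs2, at 0.463 TPM too low to be tested, and Ptges, at 2.06 TPM. The balance was −2.17 ± 0.07 on TC plates, −2.14 ± 0.19 in low-collagen gels and −2.54 ± 0.03 in high-collagen gels (SD, n = 2). With IL-4 it was −1.24 ± 0.10, −1.74 ± 0.07 and −2.10 ± 0.03 (SD, n = 2). The balance was thus higher with IL-4 in each environment, by 0.93, 0.40 and 0.44, and IL-4 libraries did not overlap with the untreated ones. A higher prostaglandin mean and a lower leukotriene mean both raise it. In low-collagen gels every leukotriene gene had a lower estimate with IL-4 (Alox5 −0.57, Alox5ap −0.59, Ltc4s −0.20). The prostaglandin genes there went both ways, with Ptgs1 at 1.41 and Tbxas1 at 0.24 but Hpgds at −1.28 and Ptges at −0.06. Ptgs2, not tested, averaged 0.971 TPM untreated and 0.318 TPM with IL-4 there. With a pseudocount of 0.1 the libraries of low-collagen gels did overlap (−2.53 and −2.19 untreated, −1.96 and −2.25 with IL-4), and the difference there was 0.26. It was 0.27 without the first untreated low-collagen library.

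Summed TPM gave the same direction for IL-4. The prostaglandin sum was 0.277 and 0.276 of the leukotriene sum on untreated plates and 0.402 and 0.423 with IL-4. In low-collagen gels the ratio was 0.312 and 0.381, and with IL-4 0.569 and 0.493. In high-collagen gels it was 0.304 and 0.293, and with IL-4 0.474 and 0.481. In low-collagen gels the prostaglandin sums overlapped, at 350 and 395 TPM untreated and 398 and 392 TPM with IL-4. The leukotriene sum there was 1121 and 1038 TPM untreated and 700 and 796 TPM with IL-4. None of these sums was rescaled by median ratios. The factors of that rescaling were 0.984 and 1.04 for the untreated and 0.905 and 0.843 for the IL-4 libraries of low-collagen gels. The overlap therefore holds for unscaled TPM only. On plates and in high-collagen gels the prostaglandin sum was higher with IL-4 and the leukotriene sum lower. For gels against plates, however, the measures went apart. By mean log2 levels the balance of IL-4 libraries was 0.49 and 0.86 lower in low- and high-collagen gels than on plates, whereas by the log2 ratio of sums it was 0.36 and 0.21 higher. Alox5ap made up 73.5% to 96.5% of the leukotriene sum, so the sum follows that gene, while in the mean of logs Ltc4s has the same weight.

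Within the prostaglandin sum the makeup differed between conditions. Ptgs1 made up 6.71% and 6.68% on untreated plates, 17.6% and 17.3% on plates with IL-4, and 24.9% to 26.6% in the 4 gel libraries with IL-4. Hpgds made up 56.4% and 53.9% on untreated plates and 13.4% and 12.9% with IL-4 in low-collagen gels. Tbxas1 was the largest share in every library but those of the untreated plates. These are shares of transcripts and say nothing of enzyme activity or of the lipids made.

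**Figure D4:**
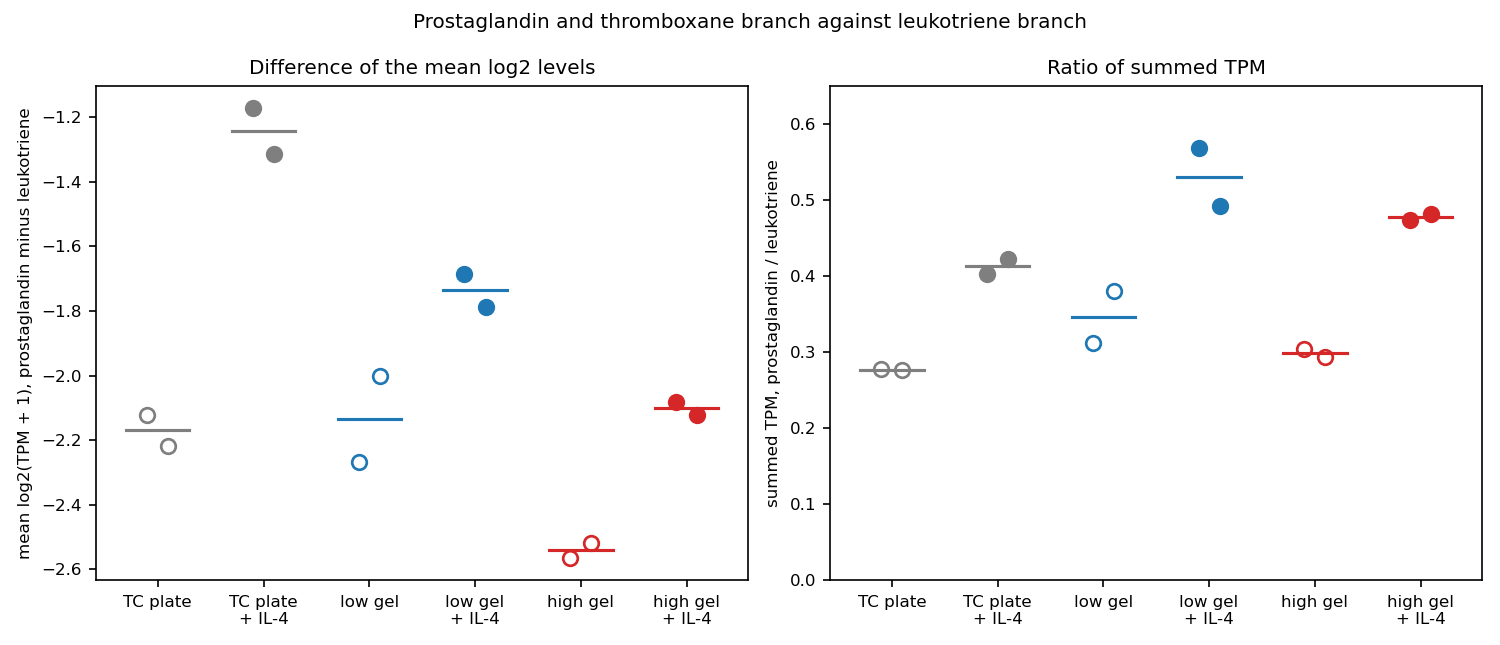
Prostaglandin and thromboxane branch against leukotriene branch in each library, as the difference of mean log2(TPM + 1) (left) and as the ratio of summed TPM (right, from 0). Points are libraries, open without and filled with IL-4, and bars are means of 2. In both measures the IL-4 libraries lie above the untreated ones in each environment, while gels with IL-4 lie below plates with IL-4 on the left and above them on the right.

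The other genes of the pathway were taken from lists of 62 genes, of which 39 were tested in the gels and 38 over all libraries. With IL-4, 12 were called higher and 16 lower on TC plates, 9 and 16 in low-collagen gels, and 7 and 15 in high-collagen gels. The shares of all genes called higher and lower were 14.7% and 24.0%, 13.2% and 40.4%, and 11.5% and 22.8%, in that order. Their median log2 change was −0.09, −0.11 and −0.14, against −0.06, −0.19 and −0.10 over all genes tested.

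Among genes of release, Pla2g5, a secreted phospholipase A2, rose with IL-4 by 2.56 on plates (limma adjusted p = 0.00015), 1.99 in low-collagen gels (limma adjusted p = 0.00050) and 1.91 in high-collagen gels (limma adjusted p = 0.00093). Its mean with IL-4 was 34.6 TPM on plates but 7.34 TPM in high-collagen gels, a difference of −2.09 (limma adjusted p = 0.00015). Pla2g7, which cleaves platelet-activating factor, was the pathway gene with the largest called difference between the gels. It was at 101 and 106 TPM in untreated high-collagen gels and at 46.9 and 44.3 TPM in untreated low-collagen gels (1.16, limma adjusted p = 0.0021), and with IL-4 at 42.0 and 43.5 against 13.6 and 14.2 TPM (1.55, limma adjusted p = 0.00070). Lpcat2, which makes platelet-activating factor and reacylates lysophospholipids, fell by 1.71 with IL-4 on plates (limma adjusted p = 3.8e-06). In high- against low-collagen gels Pla2g6, a calcium-independent phospholipase, was higher by 0.62 without IL-4 (limma adjusted p = 0.18), and Daglb, a diacylglycerol lipase, was lower by 0.52 with IL-4 (limma adjusted p = 0.033).

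Inactivation of prostaglandins was represented by Hpgd, 15-hydroxyprostaglandin dehydrogenase. It was at 15.2 and 16.3 TPM in low-collagen gels and at 0.861 and 1.08 TPM with IL-4. There it fell by 3.09 (SE 0.16, limma adjusted p = 9.3e-06). With high collagen it was at 18.9 and 15.3 TPM, and at 2.15 and 2.39 TPM with IL-4, and fell by 2.46 (limma adjusted p = 4.7e-05). On untreated plates it was at 1.81 and 1.02 TPM, so untreated gels were higher by 2.81 and 2.92 (limma adjusted p = 1.7e-06 and 1.3e-06). Among genes of inactivation and transport, 4 of 6 tested fell with IL-4 in each gel and 0 rose, where 40.4% of all genes fell at low and 22.8% at high collagen. On plates 5 fell and 1 rose, against 24.0% and 14.7% of all genes. Cyp4f18, which inactivates leukotriene B4, was higher in gels than on plates in all 4 comparisons, by 2.05 to 2.79, at a mean of 175 TPM in untreated high-collagen gels and 24.4 TPM on untreated plates. Abcc1, an exporter of leukotriene C4, was higher in high- than in low-collagen gels with IL-4 (0.64, limma adjusted p = 0.023).

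Of other synthases, Mgst2, which can also make leukotriene C4, was higher in low-collagen gels than on plates by 2.07 without and 1.69 with IL-4 (limma adjusted p = 3.0e-05 and 0.00012), while Mgst3, a microsomal glutathione transferase of the same list, was lower in gels than on plates in all 4 comparisons (−1.34 to −0.30). Cbr2, a carbonyl reductase, was higher in low-collagen gels than on plates with IL-4 by 1.95 (limma adjusted p = 1.2e-07). Of the 7 receptors tested, 4 rose and 3 fell with IL-4 on plates and in low-collagen gels, and 3 rose and 3 fell in high-collagen gels. The shares of all genes that rose and fell were 14.7% and 24.0% on plates, 13.2% and 40.4% at low and 11.5% and 22.8% at high collagen. Ltb4r1, a leukotriene B4 receptor, rose by 1.95 in low-collagen gels (limma adjusted p = 0.0010), Ptger2, a prostaglandin E2 receptor, by 1.25 on plates (limma adjusted p = 0.00010), and Fpr2, a receptor of lipoxin A4 and formyl peptides, fell by 2.29 in high-collagen gels (limma adjusted p = 0.00099). Ptgir, the prostacyclin receptor, was higher by 0.50 in untreated high- than in low-collagen gels (limma adjusted p = 0.13).

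Counts against the other comparisons were as follows. In high- against low-collagen gels 4 of the 39 genes were called higher and 4 lower with IL-4, and 5 and 1 without it, against 14.1% and 6.99%, and 3.23% and 4.79%, of all genes. For the collagen-dependent IL-4 response limma called 0 of 39, with 7 at an unadjusted p under 0.05. Of all 11852 genes, 0.194% were called for a higher and 0.169% for a lower response. Their count at that unadjusted value is given above with the comparison of IL-4 responses. Against plates, 18 of 38 were higher and 15 lower in untreated low-collagen gels, 19 and 13 in untreated high-collagen gels, and with IL-4 they were 18 and 13 in low-collagen gels, then 20 and 14 in high-collagen gels. The shares of all genes higher and lower there were 28.5% and 44.3%, 28.0% and 45.5%, 22.8% and 52.2%, and 26.5% and 48.1%.

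**Figure D5:**
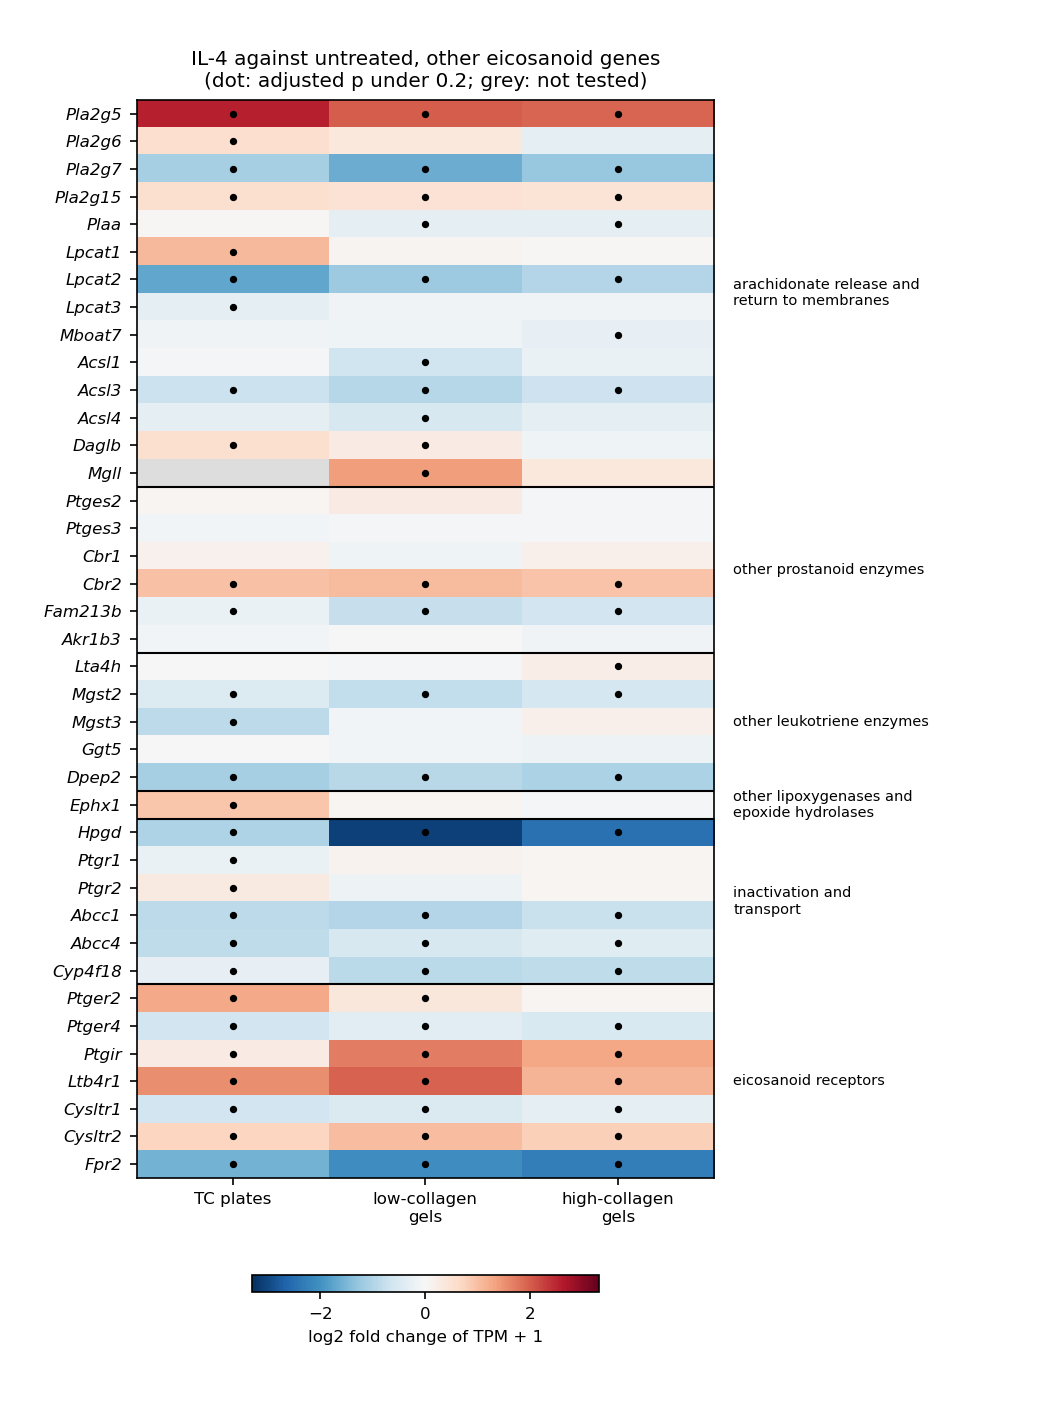
Log2 fold change of TPM + 1 with IL-4 against untreated (colour, red higher and blue lower) for the tested genes of the wider pathway, in rows grouped by role, on TC plates and in low- and high-collagen gels. Dots mark an adjusted p-value under 0.2 and grey a gene not tested there. Pla2g5 is raised in all 3 environments, and Hpgd is darkest blue in low-collagen gels, at −3.09.

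Genes whose levels ran most like those of 2 key oxygenases were named from 9670 genes with a mean of at least 5 TPM, by Pearson's r of log2(TPM + 1) over the 12 libraries. These are 6 conditions rather than independent points, so r is a description. For Ptgs1 they were Aifm2 (r = 0.99), F10, coagulation factor X (r = 0.99), and Cd274, which encodes PD-L1 (r = 0.98). Cd274 averaged 10.6 TPM on untreated plates and 69.3 TPM in high-collagen gels with IL-4. For Alox5 they were Map2k1 (r = 0.97), Stk26 (r = 0.96) and Selenon (r = 0.95). Ptgs2 and Alox15 were too low for this.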

How the data were processed

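Per the labels and the methods of the study, RNA of BMDMs was made into stranded mRNA libraries (TruSeq) and sequenced as paired reads of 38 bases. The authors estimated abundances with kallisto 0.46.1 on the GRCm38 transcriptome (Ensembl release 90) and deposited TPM per gene for 12 libraries. The kallisto options given include none for strand. How transcripts were summed to genes is not given in the sources used here. TPM keep no depth (each library totals 999658 to 999723), so no counting interval can be given and no count test was used. Of 34456 lines, 129 repeated ones were collapsed.

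Values were taken as log2(TPM + 1). Genes with a mean of at least 1 TPM were tested with limma 3.58.1 in R 4.3.3, fitting a mean per condition with a mean-variance trend, and adjusted over all genes by Benjamini-Hochberg, and called at an adjusted p-value under 0.2, two-sided. The 8 gel libraries entered 1 fit (11852 genes) and all 12 libraries another (11865 genes), used for comparisons with TC plates. As alternatives, no filter, a pseudocount of 0.1, a mean of at least 5 TPM, no trend, median-ratio rescaling, quantile normalization, a replicate block by library order, a threshold of 0.05, other libraries in the fit and leaving out each library were run. Scripts were tested on simulated data. The members and lists were chosen with earlier results of these data known.

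All 10 members are named. Of the wider pathway, up to 3 genes per comparison are named, those called with the largest change, a mean of at least 5 TPM in a group and no overlap. Promoters are RefSeq (GRCm38.p6) and gene positions GENCODE annotation of GRCm38. Shared words of 31 bases were counted over its transcripts. Figures were drawn with matplotlib 3.10.9, and tables made with pandas 2.3.3 (python 3.11.15).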

Additional observations from a re-analysis of the deposited data

Results flagged for a closer look

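Each result here is a difference in the IL-4 response between a gel and TC plates that passed limma at an adjusted p-value under 0.2. The plate libraries are shared by both gels. In low-collagen gels the difference was −0.70 for Hpgds, −0.40 for Tbxas1, −0.24 for Alox5ap and 0.83 for Alox5. Hpgds fell in both environments, more in the gels, and Tbxas1 rose in both, less in the gels. In high-collagen gels it was −0.34 for Tbxas1 and 0.69 for Ltc4s, which rose there by 0.45 and differed by −0.24 on plates.

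In the wider pathway, the difference for Hpgd was −2.06 at low and −1.43 at high collagen, beside a fall by 1.03 on plates from a mean of 1.41 TPM. A gene that low can fall little further on the log2(TPM + 1) scale. Its mean TPM with IL-4 was 0.119 of the untreated mean on plates, 0.0616 at low and 0.133 at high collagen, so the difference of −1.43 is not one of fold. Ptgir differed by 1.42 in low-collagen gels, where it rose by 1.70 against 0.28 on plates. Lpcat1 differed by −0.98 in low-collagen gels, where IL-4 changed it by 0.08 (limma adjusted p = 0.58, not called) against a rise by 1.06 on plates. Ptger2 differed by −1.17 in high-collagen gels, with 0.08 there (limma adjusted p = 0.66, not called) and 1.25 on plates. Mgst3 differed by 1.04 in high-collagen gels, with 0.18 there (limma adjusted p = 0.39, not called) and a fall by 0.86 on plates. Groups of 2 libraries were too small for a check of single outlying libraries.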

How the results depend on the processing

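Of 50 calls among 96 tests of the 8 genes over 12 comparisons, 38 were kept under every alternative and 0 changed sign. The other 12 were calls of Alox5 (5), Alox5ap (3), Hpgds (2), Ltc4s and Ptges. The shares of all genes called stand with each comparison above and were large in many of them. The comparisons also share libraries, so the 50 calls are not independent. The number of enzymes called in high- against low-collagen gels with IL-4 (3) was 1 at a threshold of 0.05, with no filter and with no trend, and 1 to 2 with a library left out. Without IL-4 (1) it was 0 at a threshold of 0.05, with a pseudocount of 0.1, with no filter, with no trend and with a replicate block, and 0 to 1 with a library left out, the 1 being Hpgds in place of Alox5. For the IL-4 response against plates in low-collagen gels (4) it was 2 at a threshold of 0.05 and when fitted to the compared libraries alone, and 2 to 4 with a library left out. For that at high collagen (2) it was 1 at a threshold of 0.05, 4 when fitted to the compared libraries alone, and 1 to 2 with a library left out. Alox5ap in untreated high-collagen gels against plates went from −0.01 to 0.16 under median-ratio rescaling. The causes were not tested.

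The branch balance moved with its definition. By the log2 ratio of sums the IL-4 change was 0.58 on plates, 0.62 in low- and 0.68 in high-collagen gels. High against low collagen was −0.15 with and −0.21 without IL-4. Against plates it was 0.32 in untreated low-collagen gels, 0.36 with IL-4, 0.11 in untreated high-collagen gels and 0.21 with IL-4, the last 3 reversed. With Alox15 in the leukotriene branch, high against low collagen with IL-4 was −0.24, and gels against plates −0.36 (low-collagen, IL-4), −0.18 (high-collagen, untreated) and −0.60 (high-collagen, IL-4). With a pseudocount of 0.1, high-collagen gels without IL-4 differed by −0.64 from low-collagen gels and by −0.51 from plates. The difference of untreated low-collagen gels from plates, 0.04, ranged from −0.10 to 0.17 with a library left out.

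The labels number the libraries consecutively and share no replicate number between conditions, so no paired analysis was possible. The replicate block was built on the order of libraries within each condition and stands for no known pairing (correlations of deviations from −0.12 to 0.11). With it the gels called 586 genes in place of 951 for collagen without IL-4 and 18 in place of 43 for the difference in IL-4 response, and the enzymes lost both calls of Alox5 for collagen while Ltc4s was called lower with IL-4 in low-collagen gels and on plates. TPM carry no depth, so what low values such as those of Ptgs2 and Alox15 allow cannot be stated. With no filter, which tested all 10 genes, further calls fell on those 2.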
